A study of Mus musculus with 3 samples.

Results

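The 43 genes described here encode the machinery that copies DNA and the enzymes that supply its building blocks. They were chosen by name, and their probes were found by matching the RefSeq accession of each probe to a mouse gene symbol. All 43 had a probe, out of 20142 named genes on the array. The cells were 3T3-L1, a line of mouse preadipocytes able to form lipid-filled adipocytes in the dish, taken 2, 8 and 20 days after adipogenic differentiation was started. The line and the differentiation are shared by all samples, and the agents of induction are not given in the sources used here. Each day was represented by 1 array of total RNA labelled with a single dye, so differences are described by size alone, without tests. No array of cells before induction was analysed here, so day 2 is the earliest reference.

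DNA replication starts when the origin recognition complex, Cdc6 and Cdt1 load the MCM helicase on DNA in the G1 phase, a step called licensing. In S phase, Cdc45 and the GINS complex switch the helicase on, polymerases copy both strands behind it, and the sliding clamp holds the polymerases on DNA. Most of these genes are transcribed from late G1 into S phase under control of E2F transcription factors. Growth-arrested 3T3-L1 preadipocytes are known to re-enter the cell cycle for a short time after induction, called mitotic clonal expansion, and then to leave it for good as they become adipocytes.

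Each array held 43020 non-control spots, between 55.3% and 56.9% of them well above background. A log2 level is the log2 of the processed intensity minus the array's 75th percentile. A level says how bright a probe was relative to its own array, and levels of different genes are not set against each other. The error beside a difference is a technical SD from probes printed 10 times on each array. It covers the spread between spots and not the spread between cultures. Of 11 adipocyte markers, 10 were well above background on day 2 and 11 on days 8 and 20, with Lep the exception. All 9 preadipocyte and fibroblast markers were well above background on every array. Between day 2 and day 8, 6 of 10 measured adipocyte markers and 2 of these 9 were at least 2-fold higher, against 13.8% of all genes. Between day 2 and day 20 the counts were 5 of 10 and 7 of 9, against 15.5%. In both comparisons 0 of either list were at least 2-fold lower, against 12.9% and 17% of all genes. Of 6 macrophage markers with a probe, Csf1r, Itgam and Cd14 were well above background on every array and Adgre1, Ptprc and Lyz2 on none. Of 5 endothelial markers, Pecam1 and Kdr were well above background on every array, Emcn on day 8 alone, and Cdh5 and Tek on none. Of 4 epithelial markers, Krt18 was well above background on every array, Epcam on day 8 alone, and Cdh1 and Krt8 on none. Between day 2 and day 8, Cd14 differed by 2.96 and Krt18 by 5.62, while Itgam, Csf1r, Pecam1 and Kdr stayed under 2-fold. The part of these markers' cell types in the results was not tested.

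Between day 2 and day 8 the replication genes were lower almost without exception. All 43 were well above background on day 2 and 42 on day 8, with Orc1 missing. Measured on both days were 42, of which 36 were at least 2-fold lower, 20 at least 4-fold lower and 0 at least 2-fold higher. The background shares among all 12044 measured genes were 12.9% past 2-fold lower, 3.19% past 4-fold lower and 13.8% past 2-fold higher. The median difference of the replication genes was -1.86 on the log2 scale, against -0.06 for all genes. All 42 lay below 0, as did 53.6% of all genes, although Gins3 turned positive under 3 alternative normalizations. In the ranking of all measured genes from the most reduced upward, 5 replication genes were among the first 100 and 23 among the first 500. In such bulk RNA, fewer cells in S phase and less RNA per cell cannot be told apart.

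**Figure D1:**
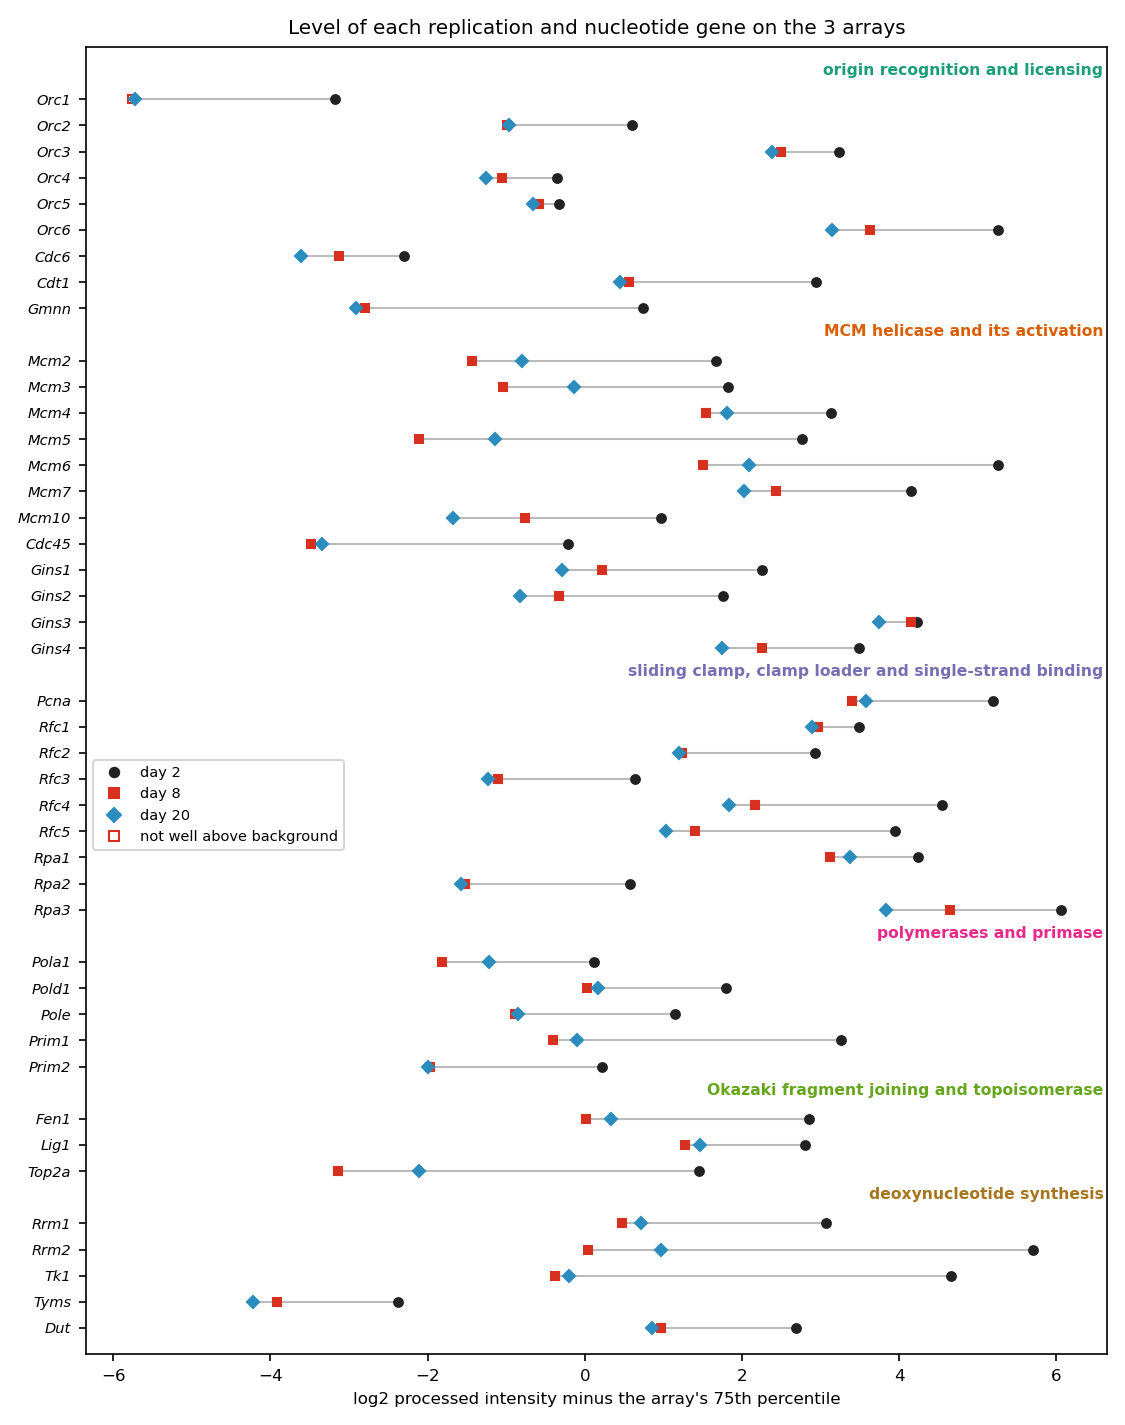
Log2 level (log2 processed intensity minus the array's 75th percentile) of each of the 43 genes on day 2 (circles), day 8 (squares) and day 20 (diamonds), 1 array a day, grouped by role. An open square marks Orc1, not well above background on day 8; the day 2 circle is the rightmost point for every gene.

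**Figure D2:**
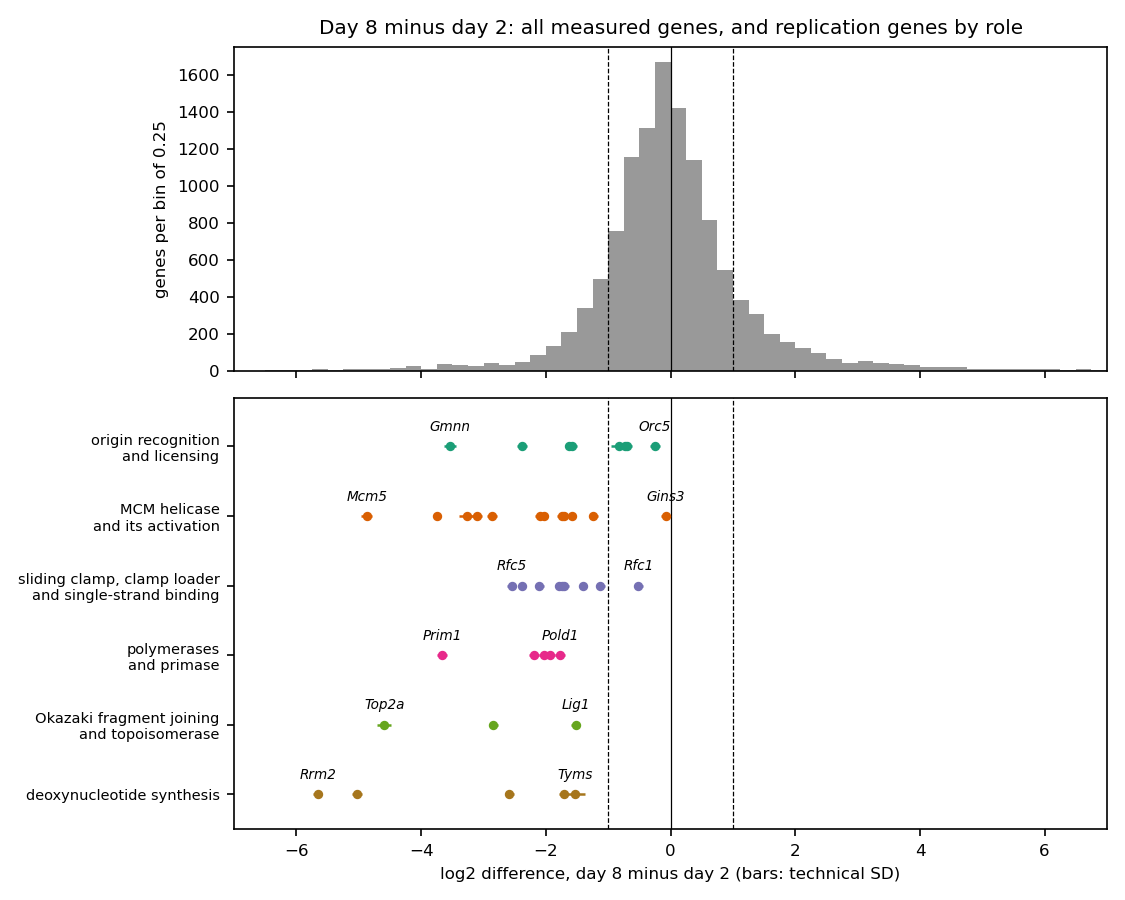
Top, number of genes in bins of 0.25 of the log2 difference between day 8 and day 2, for genes measured on both days (12044 in all; those beyond 7 on either side are not drawn). Bottom, the 42 measured replication genes by role, with technical SD as bars and the lowest and highest gene of each role named; dashed lines mark 2-fold, and 36 points lie at or left of the lower one.

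Deoxynucleotide synthesis held the deepest single-gene reductions, those of Rrm2 and Tk1. All 5 of its genes were at least 2-fold lower on day 8, with a median of -2.59. The group of Fen1, Lig1 and Top2a had a lower median, -2.84. Rrm2 encodes the small subunit of ribonucleotide reductase, the enzyme that makes deoxynucleotides and limits their supply in S phase. Its levels were 5.70 (day 2), 0.04 (day 8) and 0.97 (day 20). Day 2 was far above both later days, and day 8 was 50.6-fold below it (log2 difference -5.66, technical SD 0.0692). This placed Rrm2 at rank 17 of the 12044 genes. Tk1, the thymidine kinase of the salvage pathway, was at 4.66, -0.37 and -0.19 on days 2, 8 and 20. It was 32.7-fold lower on day 8 (-5.03, SD 0.0736) and stayed near that level. Rrm1, the large subunit of the reductase, was at 3.07, 0.48 and 0.72, a smaller reduction of 6.02-fold on day 8. Dut, which removes dUTP so that uracil is kept out of DNA, was at 2.69, 0.98 and 0.85, and 3.28-fold lower. Tyms, thymidylate synthase, was at -2.38, -3.91 and -4.22. It was among the dimmest of these genes, with a processed intensity of 42.2 on day 8. Its difference of -1.53 (SD 0.16) shrank to -0.88 with normexp background correction, which put it under 2-fold.

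In origin licensing, 4 of 8 measured genes were at least 2-fold lower on day 8, with a median of -1.21. Gmnn encodes geminin, the inhibitor of Cdt1 that prevents a second round of licensing. It stood at 0.74, -2.80 and -2.91 on the 3 days, and was 11.6-fold lower on day 8 (-3.54, SD 0.0992, or -2.73 with normexp background correction). Cdt1, the loading factor it inhibits, was at 2.94, 0.56 and 0.45, and 5.22-fold lower on day 8. Orc6, the smallest subunit of the origin recognition complex, was at 5.26, 3.62 and 3.15, a reduction of 3.10-fold.

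The subunits of the origin recognition complex were unequal. Orc1, the subunit known to rise and fall with the cell cycle, was at -3.18 on day 2 and not well above background on day 8. The bound on its day 8 difference was 5.97-fold lower. It was taken against the dim day 8 value (processed intensity 11.8), so it depends on the background correction. On day 20 Orc1 was barely above background at -5.72, which was 5.82-fold below day 2 (log2 difference -2.54, or -1.09 with normexp background correction). Orc2 was lower by 1.59 on the log2 scale on day 8. The core subunits Orc3, Orc4 and Orc5 differed by -0.74, -0.70 and -0.25. Orc5 was at -0.33, -0.58 and -0.65 on the 3 days, and Orc4 at -0.35, -1.05 and -1.26. These 3 subunits were under 2-fold between any pair of days, although the other probe of Orc4 passed it, at -1.20 on day 8 and -1.35 on day 20 relative to day 2. Cdc6, which recruits the helicase to origins, differed by -0.83 (SD 0.124) on day 8 by its brighter probe, under 2-fold, and by -1.01 by its other probe, past 2-fold.

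Of the 12 genes of the helicase and its activation, 11 were at least 2-fold lower on day 8 and 7 at least 4-fold, with a median of -2.06. Mcm5, a subunit of the hexameric helicase ring, had levels of 2.76 (day 2), -2.11 (day 8) and -1.15 (day 20). Its day 8 level was 29.3-fold below day 2 (-4.87, SD 0.088), rank 35 of all genes. Mcm6 was at 5.25, 1.51 and 2.09, and 13.4-fold lower on day 8. Cdc45, which joins the ring when origins fire, was at -0.21, -3.48 and -3.34, and 9.61-fold lower (-3.26, or -2.32 with normexp).

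The 6 ring subunits, which work as one complex with a single copy of each, spanned 3.29 on the log2 scale between day 2 and day 8. Mcm2 and Mcm3 were lower by 3.11 and 2.87, whereas Mcm4 and Mcm7 were lower by 1.58 and 1.71. The technical SD of each subunit was far smaller than this span, but it covers neither the spread between cultures nor differences in probe response. Mcm10, which helps to start unwinding, was lower by 1.74.

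GINS, a complex of 4 proteins that travels with the helicase, showed 1 subunit apart from the others. Gins3 had levels of 4.23, 4.15 and 3.74, and its day 8 difference of -0.08 (SD 0.0662) was within 2 technical SD of 0. It became 0.08 under quantile normalization, 0.10 under cyclic loess and 0.05 when the percentile came from detected probes. Gins1 and Gins2 were lower by 2.04 and 2.09. Gins4 was at 3.49, 2.25 and 1.75, and 2.36-fold lower on day 8. Each GINS gene was read by 1 probe in 1 spot. As for the ring, the technical SD does not cover differences in probe response, in GINS or in the other complexes described.

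Among the clamp, its loader and the single-strand binding proteins, 8 of 9 genes were at least 2-fold lower on day 8, with a median of -1.74. Pcna, the sliding clamp, was at 5.19, 3.40 and 3.58 on days 2, 8 and 20, and 3.46-fold lower on day 8. The clamp loader consists of a large subunit and 4 small ones. Its small subunits Rfc5 and Rfc4 were lower by 2.55 and 2.38, with day 20 levels of 1.03 and 1.84 after 3.95 and 4.55 on day 2, and a second Rfc4 probe was lower by 2.77. Rfc2 and Rfc3 were lower by 1.70 and 1.74. The large subunit Rfc1 was at 3.48, 2.97 and 2.89, a difference of -0.52 (SD 0.073) that stayed under 2-fold. Replication protein A, which coats single-stranded DNA, also showed unequal subunits: Rpa2 was at 0.58, -1.53 and -1.57 (-2.10 on day 8), Rpa3 differed by -1.40, and Rpa1 was at 4.25, 3.12 and 3.38 (-1.13). Rpa1 missed 2-fold under quantile normalization (-0.93), under cyclic loess (-0.95) and when the percentile came from detected probes (-0.995).

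All 5 polymerase and primase genes were at least 2-fold lower on day 8. Prim1, the catalytic subunit of primase, which makes the RNA primers, was at 3.26, -0.41 and -0.10, and 12.7-fold lower on day 8 (-3.67, SD 0.0777). Its partner Prim2 was at 0.23, -1.97 and -2.00, and 4.57-fold lower. The catalytic subunits of the polymerases kept closer together. Pole, of the leading-strand polymerase epsilon, was at 1.14, -0.89 and -0.85 (-2.03 on day 8). Pola1, of the polymerase that extends the primers, was at 0.12, -1.82 and -1.21 (-1.94). Pold1, of the lagging-strand polymerase delta, was at 1.80, 0.02 and 0.16 (-1.77).

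The lagging strand is finished by the flap nuclease Fen1 and the ligase Lig1, and topoisomerase II alpha, encoded by Top2a, untangles the copied strands. Top2a was at 1.46, -3.14 and -2.11, and 24.2-fold lower on day 8 (-4.59, SD 0.115, or -3.60 with normexp background correction). Fen1 was at 2.85, 0.01 and 0.33, and 7.16-fold lower. Lig1 was at 2.80, 1.28 and 1.47, and 2.87-fold lower. All 3 genes were highest on day 2 and lowest on day 8.

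Members with a close relative that also serves resting cells gave a contrast on the same arrays. Rrm2b encodes the small reductase subunit used outside S phase and in DNA repair, Tk2 the mitochondrial thymidine kinase, and Top2b a topoisomerase II also present in non-dividing cells. Against the -5.66 of Rrm2, Rrm2b was at 0.22 (SD 0.147) between day 2 and day 8. Against the -5.03 of Tk1, Tk2 was at 1.38 (SD 0.0753), which is a difference in the other direction. Against the -4.59 of Top2a, Top2b was at -0.15 (SD 0.0729). In each pair the replication gene was over 4-fold lower on both later days, while the relative was under 2-fold (Rrm2b, Top2b) or higher (Tk2). Rrm2, Tk1 and Top2a had the deepest day 8 reductions of the replication genes apart from Mcm5. The gene lists behind these pairs were chosen with earlier results of these data known, so the contrast is a description of chosen genes. The SDs are technical, and the differences between paired genes were not tested.

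**Figure D3:**
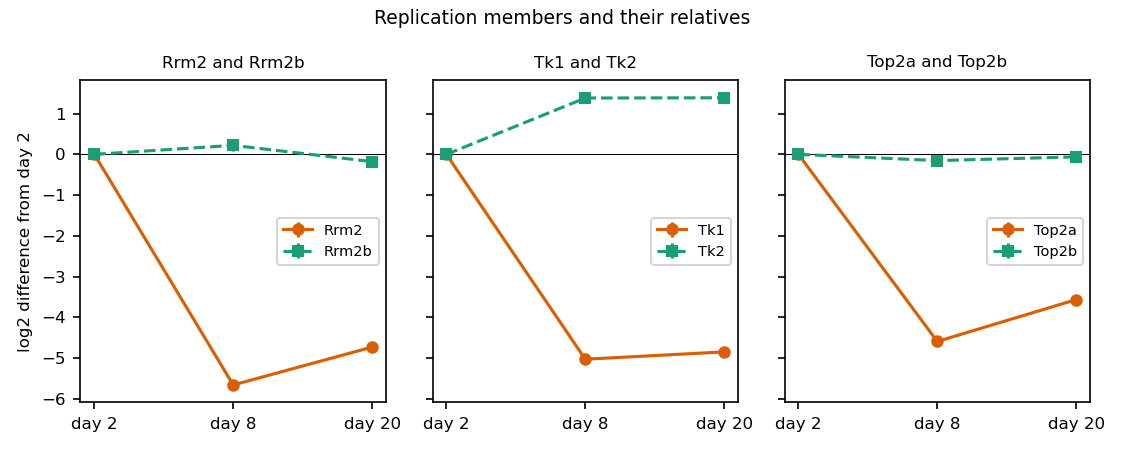
Log2 difference from day 2 on days 8 and 20 for Rrm2 and Rrm2b, Tk1 and Tk2, and Top2a and Top2b, 1 array a day, with technical SD as bars (mostly smaller than the symbols). The solid lines of Rrm2, Tk1 and Top2a lie between -5.66 and -3.57 on days 8 and 20, and the dashed lines of the relatives stay between -0.18 and 1.39.

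The E2F connection can be looked at in the promoters. Of the 43 genes, 35 had an entry in the RefSeq promoter table of build GRCm38.p6, which gives 250 bases before and 50 after each transcript start. Both strands were searched for the E2F words TTTCGCGC, TTTGGCGC, TTTCCCGC and TTTGCCGC. An E2F word was found in 13 of 35 (37.1%), against 4.43% of the 10706 genes of the table detected on any array and 2.61% of all 27025 genes in it. Their first bases lay between -165 and 40 relative to the start, and 10 of the 13 genes had one beginning within 100 bases of it. The stretches below are the 250 bases before the start, 5′ to 3′ on the gene's own strand, with E2F words in capitals. Shown are Mcm5, Mcm6 and Pola1, which had the largest day 8 differences among genes with a word before the start and measured on both days, and Gins3, which differed least. Orc1, which also has such a word, had only a bound on day 8 and is not shown. The Mcm5 stretch is chr8:75109259-75109508 (plus strand), Mcm6 is chr1:128359706-128359955 (minus strand), Pola1 is chrX:93632156-93632405 (minus strand) and Gins3 is chr8:95633309-95633558 (plus strand).
Mcm5: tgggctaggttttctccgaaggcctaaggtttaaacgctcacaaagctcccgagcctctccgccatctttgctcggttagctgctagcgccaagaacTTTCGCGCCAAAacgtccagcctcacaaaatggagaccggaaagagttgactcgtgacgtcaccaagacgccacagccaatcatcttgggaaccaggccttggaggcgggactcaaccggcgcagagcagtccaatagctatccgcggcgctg
Mcm6: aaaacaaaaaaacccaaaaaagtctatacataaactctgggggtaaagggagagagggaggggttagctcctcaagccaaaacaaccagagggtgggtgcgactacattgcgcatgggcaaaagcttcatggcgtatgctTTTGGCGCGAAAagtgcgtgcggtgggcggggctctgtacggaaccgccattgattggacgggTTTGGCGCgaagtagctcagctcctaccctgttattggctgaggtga
Pola1: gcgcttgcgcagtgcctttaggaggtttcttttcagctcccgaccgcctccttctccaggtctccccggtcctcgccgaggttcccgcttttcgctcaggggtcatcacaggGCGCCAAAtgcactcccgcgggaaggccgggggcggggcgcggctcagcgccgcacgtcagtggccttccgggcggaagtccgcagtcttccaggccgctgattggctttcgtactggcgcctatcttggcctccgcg
Gins3: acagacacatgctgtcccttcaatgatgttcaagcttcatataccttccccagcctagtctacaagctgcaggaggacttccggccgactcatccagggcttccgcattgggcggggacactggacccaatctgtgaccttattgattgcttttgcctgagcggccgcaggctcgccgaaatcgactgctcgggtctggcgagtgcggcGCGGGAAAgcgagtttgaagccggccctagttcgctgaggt
In Mcm5 and Mcm6 the longer capital run holds 2 overlapping words, 1 on each strand, and Mcm6 has a further word nearer the start. Holding a word did not sort the genes by the size of their difference. The 12 measured genes with a word had a median of -1.76 between day 2 and day 8, with 9 at least 2-fold lower, and the 22 without one had a median of -1.95, with 19 at least 2-fold lower. Rrm2, Tk1 and Top2a, with the deepest reductions apart from Mcm5, had none of these letters in the window.

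Other promoter words were searched in the same windows. CCAAT was found in 65.7% of the 35 genes, against 43.1% of the 10706 detected genes, and the GC box GGGCGG in 74.3% against 64.4%. The CHR words TTTGAA and TTCGAA, known from promoters of genes expressed in G2 and mitosis, were in 20% of the replication genes and 17.0% of the detected genes. Among 27 mitosis genes listed for comparison, 23 had a promoter entry, of which 73.9% held a CHR word and 4.35% an E2F word. A word match is a description of the sequence, not a measured binding site.

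**Figure D4:**
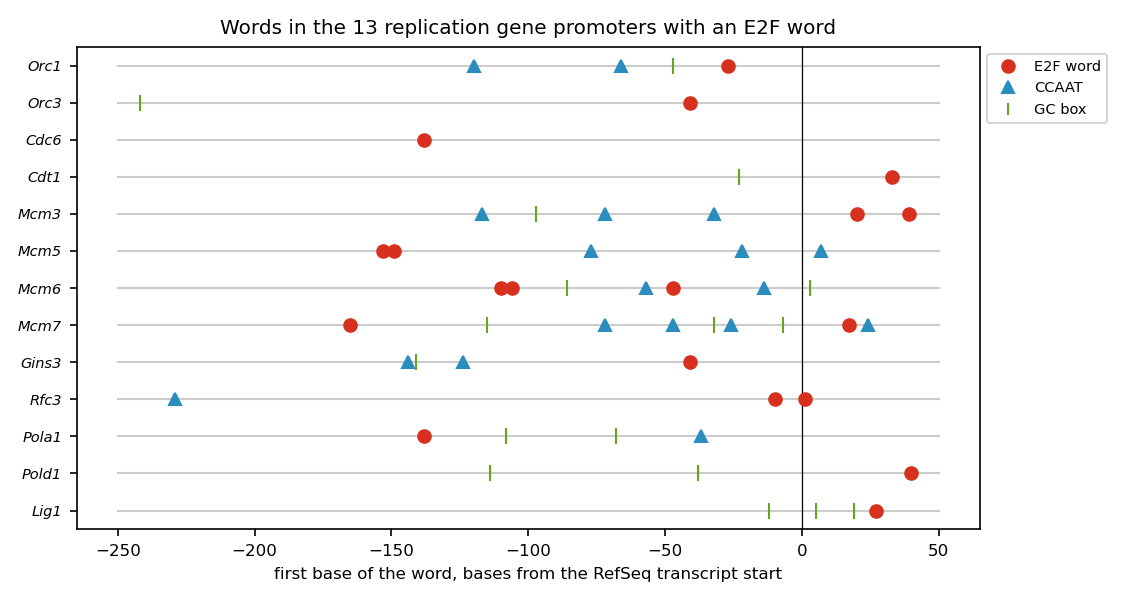
Position of E2F words (circles), CCAAT (triangles) and GC boxes (ticks) on either strand in the promoters of the 13 genes with an E2F word, in bases from the RefSeq transcript start; grey lines span the 250 bases before and 50 after it, and words at alternative starts of a gene are drawn on 1 line. E2F words begin between -165 and 40.

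Between day 8 and day 20 the replication genes stayed low. Of 42 measured on both days, 1 was past 2-fold upward, against 3.58% of all 12321 measured genes. In the other direction 0 passed 2-fold (1.74% of all genes) and 0 passed 4-fold (0.138%). The median difference was -0.04, beside -0.05 for all genes, and 23 of 42 lay below 0, beside 55.1% of all genes. For 15 of the 42, the difference was within 2 technical SD of 0. The gene past 2-fold was Top2a, 2.04-fold higher on day 20 (1.03, SD 0.127), and it fell short with normexp background correction (0.48).

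Smaller differences ran in both directions within complexes. Of the ring subunits, Mcm5 differed by 0.96 (SD 0.0936), Mcm3 by 0.90, Mcm2 by 0.64, Mcm6 by 0.58 and Mcm4 by 0.26, while Mcm7 differed by -0.41 (SD 0.0813). Rrm2 differed by 0.93 (SD 0.0756) and Pola1 by 0.61. On the lower side were Mcm10 at -0.91 (SD 0.091) and Rpa3 at -0.81 (SD 0.0689). Gins1, Gins2 and Gins4 differed by -0.51, -0.49 and -0.50, and Gins3 by -0.41, so the 4 GINS subunits were close in this interval with the main scaling. Under cyclic loess Gins1, Gins2 and Gins4 differed by -0.46, -0.45 and -0.35, and Gins3 by -0.16. Orc6 and Cdc6 were at -0.47 and -0.49. These differences stayed under 2-fold with the main scaling. Mcm5 and Rrm2 passed it under cyclic loess, Mcm5 when the percentile came from detected probes, and the genes named below under spike-in scaling.

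The zero of this comparison depended on the scaling. With spike-in probes as the scale, the median of all genes between day 8 and day 20 moved from -0.05 to 0.62 and that of the replication genes from -0.04 to 0.62. With that scaling 21 of 42 replication genes changed sign, and 7 of 42 were at least 2-fold higher, against 17.0% of all genes under that scaling: Top2a, Mcm2, Mcm3, Mcm5, Mcm6, Pola1 and Rrm2. Mcm10 (-0.25) and Rpa3 (-0.15) remained below 0. Spike-in scaling moves all genes by an equal amount, so the order of the genes and the gaps between the ring subunits do not depend on it.

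**Figure D5:**
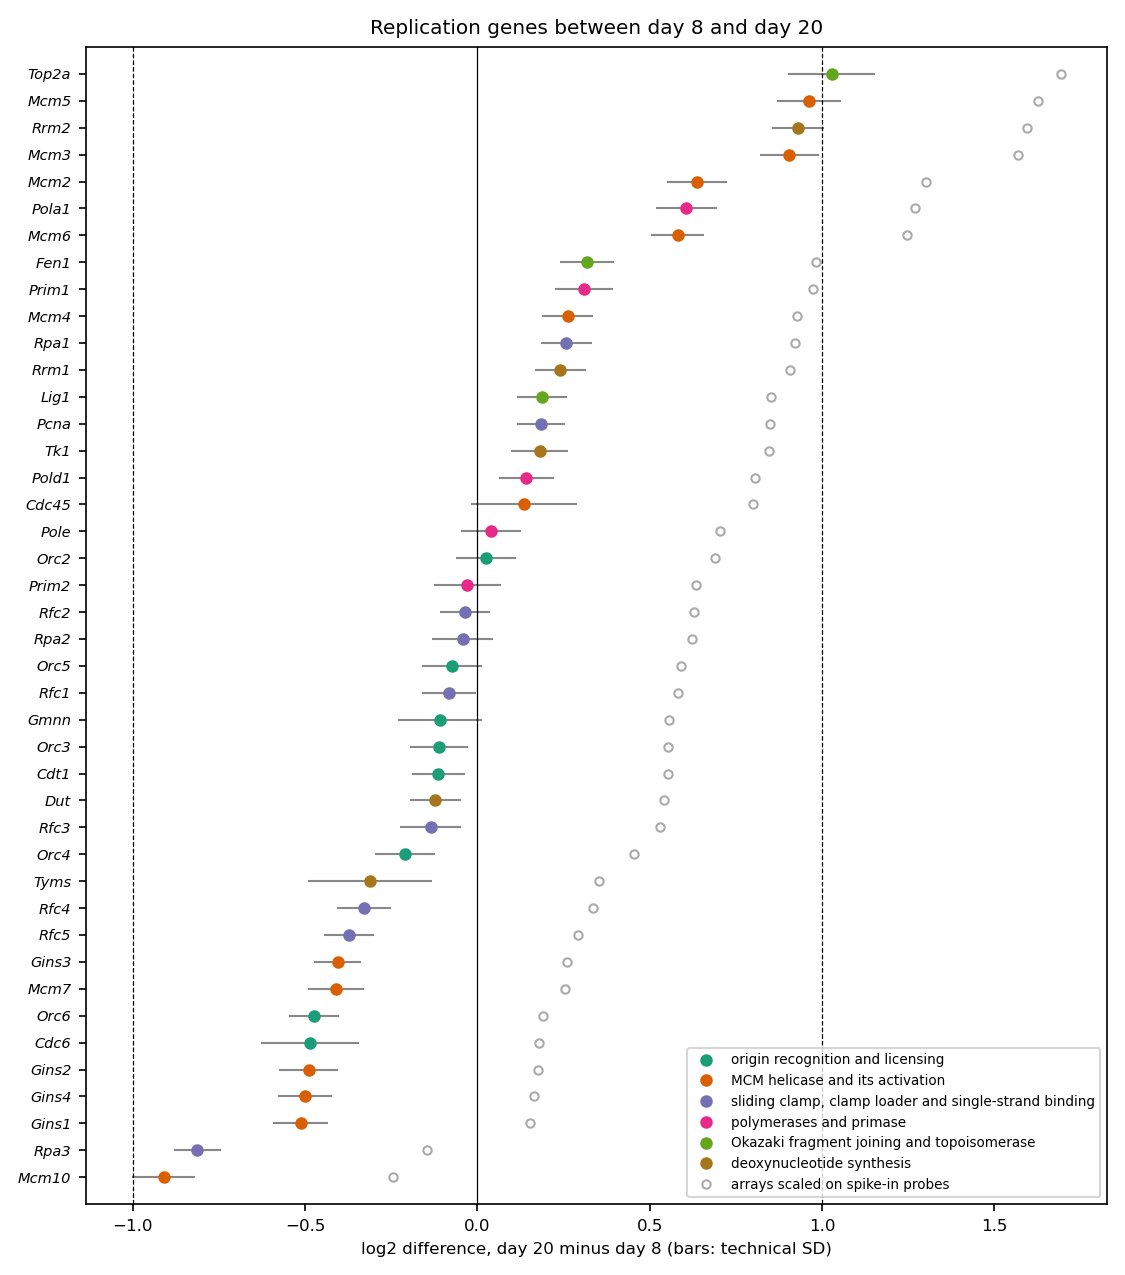
Log2 difference between day 8 and day 20 for the 42 replication genes measured on both days, sorted, with technical SD as bars and colours for role; grey open circles show the same genes with arrays scaled on spike-in probes. Dashed lines mark 2-fold; filled points run from -0.91 (Mcm10) to 1.03 (Top2a).

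Between day 2 and day 20, all 43 genes were measured and all 43 were lower on day 20. At least 2-fold lower were 37, at least 4-fold lower 23, and at least 2-fold higher 0, against 17%, 3.75% and 15.5% of all 11888 genes measured. Below 0 lay 56.4% of all genes. The median difference was -2.12, beside -0.14 for all genes. Tk1 was 28.8-fold lower on day 20 (-4.85, SD 0.0737) and Rrm2 26.6-fold (-4.73, SD 0.0669), followed by Mcm5 at -3.91, Gmnn at -3.65 (-3.03 with normexp) and Top2a at -3.57. The 6 genes under 2-fold were Orc3, Orc4, Orc5, Gins3, Rfc1 and Rpa1, between -0.32 and -0.91. Of the 36 genes at least 2-fold lower on day 8, 35 were also at least 2-fold lower on day 20, the exception being Rpa1 at -0.87. Both comparisons use the same day 2 array. With spike-in scaling 30 genes were at least 2-fold lower and 10 at least 4-fold, against 5.91% and 1.91% of all genes under that scaling, and Orc5, Gins3 and Rfc1 turned to positive values. Of the 42 genes well above background on all 3 arrays, all 42 were highest on day 2, 19 were lowest on day 8 and 23 on day 20.

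Other genes of the pathway, listed beside the 43, followed in part. Of 70 such genes, 69 were measured on days 2 and 8, of which 34 were at least 2-fold lower and 3 higher, with a median of -0.97. Of all genes, 12.9% were at least 2-fold lower and 13.8% higher between these days, the shares beside the day 8 list counts that follow. Genes that rebuild chromatin behind the fork were at least 2-fold lower in 7 of 8 cases (median -2.62). They were led by Chaf1b, a subunit of chromatin assembly factor 1, at -4.03, and Uhrf1, which guides maintenance methylation, at -3.17. Fork protection, cohesion loading and lagging-strand genes were at least 2-fold lower in 10 of 14 (median -1.38), or 6 of 14 with normexp (median -0.95). They were led by Dscc1 at -3.55 and Chtf18 at -3.05, both of an alternative clamp loader. Origin-firing factors were at least 2-fold lower in 6 of 10 (median -1.16), led by Ticrr at -3.75 and Dbf4, the activator of the Cdc7 kinase, at -3.38. Thymidylate and folate enzymes were at least 2-fold lower in 5 of 7 (median -1.46).

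Further subunits of the replication polymerases were split, with 3 of 7 at least 2-fold lower and 1 higher. Pole2 was at -3.94 and Pole4 at -2.21, whereas Pold4, a small subunit of polymerase delta, was at 1.28. De novo purine and pyrimidine synthesis, which also feeds RNA and energy metabolism, had 3 of 14 at least 2-fold lower and 1 higher (median -0.52). The shares of all genes were 12.9% and 13.8%. Ctps, a CTP synthase, was at -1.72, and Impdh1, of the guanine nucleotide branch, was at 3.30 on day 8 and -1.08 from day 8 to day 20. The 4 genes of nucleotide supply outside S phase had 0 at least 2-fold lower and 1 at least 2-fold higher. Of 5 further topoisomerase genes 0 passed 2-fold, or 1 under quantile normalization, cyclic loess, spike-in scaling or the percentile over detected probes. From day 8 to day 20, 1 of 67 measured genes of the 70 was at least 2-fold lower (Impdh1) and 0 were higher, with a median of -0.06. Among all genes 1.74% were lower and 3.58% higher in this interval, with a median of -0.05. The Impdh1 call was lost under quantile normalization, cyclic loess and spike-in scaling. Of the 8 chromatin genes, 1 was at least 2-fold higher under cyclic loess or the percentile over detected probes and 3 under spike-in scaling, which also raised genes of other lists past 2-fold. With spike-in scaling 17.0% of all genes were at least 2-fold higher in this interval.

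Of 13 E2F and RB family genes, 4 were at least 2-fold lower on day 8, led by E2f8 at -4.83 and E2f7 at -2.54. E2f8 was dim on day 8, at a level of -5.43. E2f1 and E2f3 differed by -0.93 and -0.66. At least 2-fold higher was 1, the RB relative Rbl2 at 1.51 (2 were higher under cyclic loess, the percentile over detected probes or the dimmest detected probe). Among all genes 12.9% were lower and 13.8% higher. Between day 8 and day 20, E2f8 and E2f7 differed by 1.45 and 1.24, and E2f2 by -1.56. E2f7 was also dim on day 8, at -4.32, and E2f2 on day 20, at -3.96, so these differences rest on dim values. Among mitosis genes, 24 of 24 measured passed 4-fold lower on day 8, with a median of -4.19, beside 20 of 42 and -1.86. Of all genes 3.19% passed it. Between day 8 and day 20 the median of the mitosis genes was 0.65 with 3 of 24 at least 2-fold higher, beside -0.04 and 1 of 42. Of all genes 3.58% were higher by that measure. With normexp background correction 0 of 24 mitosis genes passed 2-fold (median 0.34), and with spike-in scaling 19 of 24 did (median 1.31). The shares of all genes under these settings were 1.67% and 17.0%. With 1 array a day these gaps were not tested. Ribosomal protein genes, listed as a control, had 0 of 29 past 2-fold on day 8 (median -0.22; 4 of 29 with the dimmest detected probe of each gene). Relative to day 2, 7 of 29 were past 2-fold lower on day 20 (median -0.83), against 17% of all genes. The count was 0 of 29 with spike-in scaling, quantile normalization, cyclic loess or the percentile over detected probes.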

How the data were processed

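Total RNA from 3T3-L1 cells on days 2, 8 and 20 was read on 3 Agilent 1-colour arrays, 1 per day, without replicates. Per the submitters' processing notes, spots were read with Agilent Feature Extraction 10.7.1.1. The deposited processed intensity is background-corrected and not scaled between arrays, per the file headers. Other deposited columns are 0 or 1 marks, among them whether a spot was well above background. The series matrix holds deposited log2 values. Set against the scanner output, they were the log2 processed intensity shifted by an array constant (-9.37, -9.31 and -9.86), and they served as an alternative.

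After removal of control and outlier spots, log2 values were averaged per probe and centred on the 75th percentile of the non-control probes of that array. Of 39429 probes, 26581 were named by RefSeq accession (table of assembly GRCm38.p6). The array design follows an earlier build, per the file headers, so no probe coordinates are given. The promoter coordinates are those of build GRCm38.p6. A gene took its brightest probe over the 3 arrays. A difference needed that probe well above background on each of the arrays compared. Otherwise a bound was taken against the dim value, or the lowest signal well above background if higher. Called means at least 2-fold. Technical SDs came from between 238 and 239 probes printed 10 times, read by signal. Below the mean signal of the dimmest group of those probes the SD was held constant, so it may be too small for dim genes. Gene lists, role groups, motif words and the naming rule (the 3 largest and 2 smallest day 8 differences per role, members past 2-fold from day 8 to day 20, and members not well above background) were chosen with earlier results of these data known. Levels of some further members are given beyond that rule. The difference calculation was tested on simulated data. R 4.3.3 with limma 3.58.1 gave the alternatives normexp (on median spot and background signals, offset 50), quantile and cyclic loess. All differences come from single arrays, so their number limits the precision.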

Additional observations from a re-analysis of the deposited data

How the results depend on the processing

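In 11 alternative settings, the count of replication genes at least 2-fold lower ranged from 35 to 38 between day 2 and day 8 and from 30 to 38 between day 2 and day 20, and it was 0 between day 8 and day 20. Of the single-gene differences past 2-fold in each comparison, 0 changed sign. The day 8 median of -1.86 moved to -1.73 with the 75th percentile over detected probes, -1.74 with cyclic loess, -1.72 with normexp and -1.78 with the median over the probes of a gene. The day 20 against day 2 median of -2.12 moved to -1.93 with the percentile over detected probes, -1.78 with cyclic loess, -1.90 with normexp, -1.90 with quantile normalization and -1.43 with spike-in scaling. The day 8 to day 20 median of -0.04 turned to 0.0239 (percentile over detected probes), 0.0597 (cyclic loess) and 0.62 (spike-in scaling). In that interval the count at least 2-fold higher was 2 with the percentile over detected probes, 3 with cyclic loess, 0 with normexp and 7 with spike-in scaling, against 1. Between day 2 and day 20, 10 genes were at least 4-fold lower with spike-in scaling, against 23. Spike-in scaling adds 1 constant per array, and what sets that constant apart on day 20 was not tested; the cause of the other moves was not tested either. No paired analysis was possible because each day has 1 array. Signal over background limits Orc1, Tyms, Cdc45, Top2a and Cdc6, the 5 dimmest on day 8. The highest technical SD was 0.18, for Tyms, but the SD was held constant for the dimmest signals, such as Orc1 on day 20. Another measured probe existed for 4 genes, and all 4 kept the sign.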
